A study of Mus musculus with 14 samples.

Results

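Krt34 (a hair shaft keratin), Tchh (trichohyalin), Chl1 (neural cell adhesion), Gpc3 (a glypican), Dapl1 (epithelial differentiation) and Pax3 (a transcription factor) were followed in mouse tumor organoids carrying hairpins against Suv4-20h2. These 6 genes were chosen for a rise in the libraries of the exon 9 hairpin, out of 17490 genes listed there and 55421 listed for the exon 4 hairpin, and all 6 were listed in both. Poly(A) RNA was sequenced from APT tumor organoids of the mouse small intestine, and the labels do not spell out what APT stands for or give a strain, sex or age. Each library carried a doxycycline-inducible short hairpin RNA and had been kept for 4 days in 0.5 µg/ml doxycycline, the controls included. Hairpin 2 (shSuv4-20h2_#2, 4 libraries) targeted exon 9 of Suv4-20h2 and was set against control 2 (shCtrl_#2, 4 libraries); together they are called set 2. Hairpin 1 (shSuv4-20h2_#1, 3 libraries) targeted exon 4 and was set against control 1 (shCtrl_#1, 3 libraries), called set 1. The labels number each hairpin as 1 clone, and they do not state whether replicates were grown apart; the p-values below therefore rest on library-to-library spread that could be purely technical.

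Keratins of the Krt34 type assemble into the hard filaments of the hair shaft, and trichohyalin, the product of Tchh, stiffens the inner root sheath around it after crosslinking by transglutaminases. Chl1 encodes a cell adhesion molecule of the L1 family that guides neurites and migrating neurons. Gpc3 encodes a heparan sulphate proteoglycan anchored to the cell surface, which binds hedgehog and Wnt ligands and is abundant in fetal tissues. Pax3 encodes a paired-box transcription factor of the neural crest, melanocyte and skeletal muscle lineages. Dapl1, also named for early epithelial differentiation, encodes a small protein of differentiating epithelia. Mature small-intestinal epithelium is not known for any of these products, and Suv4-20h2 is a histone methyltransferase that acts on H4 in compact chromatin.

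Total counts were 9272134 to 25267211 per hairpin 2 library, 19837679 to 26284079 in control 2, 16897767 to 23321606 in hairpin 1 and 16265034 to 18088690 in control 1. The targeted gene, listed as Kmt5c, had 99.3 to 114 CPM (read counts scaled for sequencing depth with TMM factors) in hairpin 2 against 116 to 129 CPM in control 2. In set 1 it had 53.5 to 64.2 CPM in hairpin 1 against 67.2 to 75.7 CPM in control 1. Kmt5c thus stood at -0.20 (log2 fold change, SE 0.062) in hairpin 2, where the edgeR adjusted p was 0.098, or 0.0074 when replicate numbers were blocked. That block, used again below, was judged from the data and not the labels, and rests mainly on replicate 4. In hairpin 1 Kmt5c stood at -0.31 (SE 0.175, edgeR adjusted p = 0.80). All 12 markers of intestinal epithelium were tested in both sets. They summed to 5159 to 5833 CPM in hairpin 2 against 6473 to 6632 CPM in control 2, with 5 lower (8 with replicate numbers blocked), 0 higher and a median log2 fold change of -0.25, where 4.01% of all tested genes were lower; their part in the results below was not tested. Hairpin 1 replicate 1 stood apart in set 1: its counts differed from those of the other hairpin 1 libraries by a chi-square per gene of 245 and 288, against 24.04 between those 2. In set 2 both replicate 4 libraries stood apart from the rest of their groups, with a chi-square per gene of 20.1 to 33.9 against 3.01 to 5.22 among the others.

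The 6 genes lie on 6 chromosomes. In GENCODE M21 (GRCm38), Krt34 (ENSMUSG00000043485) lies on chromosome 11, 100037347 to 100041554, minus strand, and Tchh (ENSMUSG00000052415) on chromosome 3, 93442330 to 93449077, plus strand. Chl1 (ENSMUSG00000030077) lies on chromosome 6, 103510586 to 103750211, plus strand, and Gpc3 (ENSMUSG00000055653) on chromosome X, 52272426 to 52613950, minus strand. Dapl1 (ENSMUSG00000026989) lies on chromosome 2, 59484653 to 59505020, plus strand, and Pax3 (ENSMUSG00000004872) on chromosome 1, 78101267 to 78197134, minus strand. The 11 other annotated entries that overlap Chl1, Gpc3 or Tchh had 0 counts in every set 1 library and were not listed in set 2. Krt34 belongs to a cluster of near-identical genes: 33.1% of the 50-base stretches of its longest transcript also occur in transcripts of other genes, chiefly Krt31, Krt33a and Krt33b. Its counts are therefore uncertain, while the share was at most 0.446% for the other 5.

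Promoter windows from RefSeq (GRCm38.p6, 250 bases before to 50 after the start, read 5′ to 3′ on the gene's strand) were at hand for 5 of the 6. They are shown as a description, since the joint rise of these genes in set 2 is how they were chosen. Capitals mark matches, on either strand, to 5 short motifs that are spelled out after the sequences and were chosen once these had been seen; no matches overlap.
Krt34: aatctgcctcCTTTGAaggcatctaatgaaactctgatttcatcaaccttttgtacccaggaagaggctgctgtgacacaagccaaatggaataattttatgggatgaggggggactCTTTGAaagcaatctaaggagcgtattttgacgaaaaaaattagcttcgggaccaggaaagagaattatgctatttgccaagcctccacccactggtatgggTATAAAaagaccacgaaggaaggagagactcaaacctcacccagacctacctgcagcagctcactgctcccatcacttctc
Tchh: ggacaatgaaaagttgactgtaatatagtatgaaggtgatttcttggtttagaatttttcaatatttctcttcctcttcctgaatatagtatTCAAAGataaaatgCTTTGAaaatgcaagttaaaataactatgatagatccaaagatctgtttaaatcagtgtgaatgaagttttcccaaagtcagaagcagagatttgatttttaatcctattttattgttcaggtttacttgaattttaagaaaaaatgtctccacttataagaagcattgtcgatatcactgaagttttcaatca
Chl1: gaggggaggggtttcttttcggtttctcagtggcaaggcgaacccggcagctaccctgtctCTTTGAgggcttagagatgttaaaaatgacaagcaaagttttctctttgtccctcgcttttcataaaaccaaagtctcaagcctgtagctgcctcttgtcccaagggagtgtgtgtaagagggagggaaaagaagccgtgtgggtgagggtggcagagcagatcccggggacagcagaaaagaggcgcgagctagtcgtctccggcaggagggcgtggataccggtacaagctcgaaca
Gpc3: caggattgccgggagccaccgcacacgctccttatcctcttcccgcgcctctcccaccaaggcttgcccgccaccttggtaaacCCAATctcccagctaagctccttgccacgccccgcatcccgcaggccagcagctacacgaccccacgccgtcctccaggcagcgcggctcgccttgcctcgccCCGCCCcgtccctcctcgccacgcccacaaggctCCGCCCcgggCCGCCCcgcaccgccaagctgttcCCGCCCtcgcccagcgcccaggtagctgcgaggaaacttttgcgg
Dapl1: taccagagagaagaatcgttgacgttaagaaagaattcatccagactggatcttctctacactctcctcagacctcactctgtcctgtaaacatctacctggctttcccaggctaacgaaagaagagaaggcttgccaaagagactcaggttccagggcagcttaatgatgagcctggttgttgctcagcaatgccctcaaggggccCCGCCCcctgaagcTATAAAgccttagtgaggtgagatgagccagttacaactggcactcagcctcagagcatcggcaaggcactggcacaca
These windows span chr11:100041505-100041804 (minus strand) for Krt34, chr3:93442080-93442379 (plus) for Tchh, chr6:103510626-103510925 (plus) for Chl1, chrX:52613925-52614224 (minus) for Gpc3 and chr2:59484403-59484702 (plus) for Dapl1.

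The Tchh, Dapl1 and Krt34 windows were below the median window in CpG, and the Chl1 and Gpc3 windows were above it. Observed over expected CpG was 0.164 for Tchh, 0.258 for Dapl1, 0.260 for Krt34, 0.628 for Chl1 and 0.919 for Gpc3, against a median of 0.384 over 32851 RefSeq windows of the same length. GC content was 28.7% for Tchh and 70.7% for Gpc3, with 45.3% for Krt34, 51.0% for Dapl1 and 53.7% for Chl1. CTTTGA, the core letters bound by TCF/LEF factors of the Wnt pathway, occurred in the Krt34, Tchh and Chl1 windows, 3 of 5, against 16.0% of all windows. Counted from the start, with negative positions before it, Krt34 held it at -240 and -133, Chl1 at -189 and Tchh at -158 and -144. TATAAA began at -31 in Krt34 and at -29 in Dapl1, against 13.6% of all windows with the letters anywhere. The GC box, spelled GGGCGG and found in 35.7% of all windows, occurred 4 times in Gpc3 and once in Dapl1. A single match to CCAAT, which 37.4% of windows hold, lay in Gpc3. None of the 5 windows held the AP-1 site TGANTCA, found in 7.81% of all windows. These are matches of letters and say nothing about binding.

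All 6 genes were higher in hairpin 2 than in control 2, which is how they were chosen, so the set 2 values that follow are a description without a test. In 6 of 6 no hairpin 2 library fell as low as the highest control 2 library, a separation also seen in 6.9% of the 14126 genes tested. By the edgeR quasi-likelihood test, 2.04% of those genes, 288 in all, were higher at an adjusted p under 0.05, and 0.149% were also over 2-fold. No call is given for the 6, which were chosen on this contrast. By log2 fold change among the 14126 tested genes they ranked 5 (Krt34), 8 (Chl1), 13 (Gpc3), 22 (Dapl1), 84 (Tchh) and 100 (Pax3), so other genes rose as much. None was absent from the controls: the lowest count of any of them in a control 2 library was 43, and in bulk RNA more expressing cells cannot be told apart from more RNA per cell.

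Of the hair proteins, Krt34 had 9.71, 6.43, 7.14 and 8.21 CPM in the hairpin 2 libraries against 2.27, 2.15, 3.24 and 1.84 CPM in control 2. The lowest hairpin 2 library was 1.98 times the highest control, and the log2 fold change was 1.72 (SE 0.203), the largest of the 6. Tchh had 22.1, 21.8, 20.2 and 20.5 CPM in hairpin 2 against 13.8, 10.2, 13.0 and 9.50 CPM in control 2, the highest CPM of the 6 in both groups. Its log2 fold change was 0.87 (SE 0.123). The hairpin 2 libraries lay close together, and the control libraries fell into a higher pair (replicates 1 and 3) and a lower pair (2 and 4).

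At the cell surface, Chl1 had 12.7, 13.3, 12.6 and 13.0 CPM in hairpin 2 against 3.90, 4.26, 4.01 and 4.49 CPM in control 2. It was the most even of the 6 between libraries, with 12.9 ± 0.300 CPM in hairpin 2 and 4.16 ± 0.263 CPM in control 2 (SD, n = 4 each), a log2 fold change of 1.63 (SE 0.097) and a gap of 2.82 times between the nearest libraries of the groups. Gpc3 had 9.36, 10.9, 8.11 and 11.3 CPM in hairpin 2 against 3.04, 3.91, 3.17 and 3.85 CPM in control 2, a log2 fold change of 1.51 (SE 0.146). In linear terms Chl1 was 3.10 and Gpc3 2.85 times its control level.

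The transcription factor gene Pax3 had 11.7, 10.9, 9.73 and 8.13 CPM in hairpin 2 against 6.95, 5.11, 6.95 and 4.09 CPM in control 2. Its groups came closest, with the lowest hairpin 2 library at 1.17 times the highest control, and its log2 fold change was 0.82 (SE 0.188). Dapl1 had 13.5, 13.1, 15.0 and 9.87 CPM in hairpin 2 against 4.95, 5.41, 4.46 and 5.65 CPM in control 2, a log2 fold change of 1.33 (SE 0.143). Hairpin 2 replicate 4 was its lowest hairpin library, and replicate 4 its highest control.

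**Figure D1:**
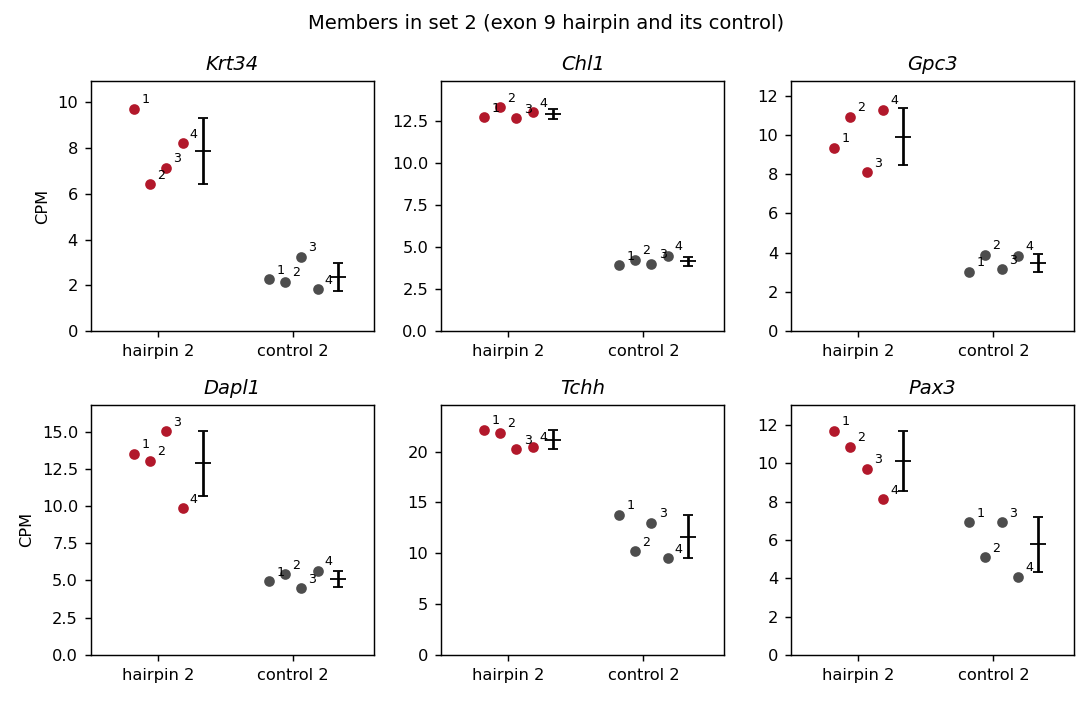
CPM of each gene (vertical axis from 0, scale differs by panel) in the hairpin 2 and control 2 libraries, numbered by replicate, with mean and SD at the side (n = 4 each). In every panel the lowest hairpin 2 library lies above the highest control 2 library, by the least in Pax3 (1.17 times) and the most in Chl1 (2.82 times).

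Since the groups did not overlap, the direction was fixed for any pairing or subset of libraries, and only the sizes are described. Without both replicate 4 libraries the log2 fold changes were 1.59 for Krt34, 0.80 for Tchh, 1.67 for Chl1, 1.54 for Gpc3, 0.78 for Pax3 and 1.48 for Dapl1. Within the 4 pairs of equal replicate number, log2 ratios of CPM plus 0.5 ran from 1.44 to 1.58 in Chl1 and 1.23 to 1.48 in Gpc3. They ran from 1.03 to 1.89 in Krt34, 0.75 to 1.65 in Dapl1, 0.62 to 1.07 in Tchh and 0.46 to 1.02 in Pax3. The spread between pairs was thus narrow for the cell-surface genes and wider for the others.

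Levels of different genes were compared per kilobase of exon. In hairpin 2 Dapl1 was highest at 18.9 ± 3.19 CPM per kb, followed by Krt34 at 4.89 ± 0.889, Gpc3 at 3.69 ± 0.546, Tchh at 3.64 ± 0.165, Pax3 at 1.64 ± 0.251 and Chl1 at 1.05 ± 0.0244 CPM per kb (SD, n = 4 each). Krt34 and Gpc3 overlapped between libraries, as did Gpc3 and Tchh, and these neighbours are not set apart by their spread, while Dapl1 lay above and Pax3 and Chl1 below them. In control 2 Dapl1 had 7.54 ± 0.773 CPM per kb, Tchh 2.00 ± 0.360, Krt34 1.48 ± 0.376, Gpc3 1.30 ± 0.167, Pax3 0.933 ± 0.229 and Chl1 0.339 ± 0.0214 CPM per kb (SD, n = 4 each), with Tchh and Krt34, and Krt34 and Gpc3, overlapping. Dapl1 exceeded 77.5% of tested genes in hairpin 2 and 54.7% in control 2 on this scale. The other 5 stood below the median gene, from Krt34 above 44.3% of genes to Chl1 above 20.6% in hairpin 2, and from Tchh above 28.1% to Chl1 above 7.52% in control 2.

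The exon 4 hairpin gave measurements that played no part in the choice of the genes, and there none of the 6 passed the test. Of 13540 genes tested in set 1, 0.0% were called by edgeR at an adjusted p under 0.05; 733 had an unadjusted p under 0.05 (5.41%), DESeq2 called 22 and limma voom with library quality weights called 8. Tchh, Chl1 and Gpc3 were tested, and Krt34, Dapl1 and Pax3 fell under the filter on low counts. Without that filter their adjusted p-values were 0.94, 0.76 and 0.76, and in a model of all 14 libraries 0.83, 0.39 and 0.55. In 0 of the 6 were the hairpin 1 libraries all above the control 1 libraries, a separation seen in 6.48% of tested genes.

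Tchh had 12.6, 5.38 and 3.76 CPM in hairpin 1 against 4.01, 3.95 and 2.98 CPM in control 1, a log2 fold change of 0.99 (SE 0.514, edgeR adjusted p = 0.80). Hairpin 1 replicate 3 lay inside the control range, and without hairpin 1 replicate 1 the value was 0.32 (adjusted p = 0.72). Chl1 had 10.9, 0.729 and 0.106 CPM in hairpin 1 against 1.05, 2.71 and 0.0585 CPM in control 1, so that 1 library held nearly all of its hairpin 1 counts, 250 of 265. Its log2 fold change of 1.63 (SE 1.57, adjusted p = 0.85) turned to -1.61 (adjusted p = 0.51) without that library and stood at 2.82 without control 1 replicate 2. Gpc3 had 0.525, 0.841 and 0.688 CPM in hairpin 1 against 0.581, 0.413 and 0.468 CPM in control 1, a log2 fold change of 0.48 (SE 0.459, adjusted p = 0.85) on 7 to 15 counts per library. Whether the hairpins differ was not tested, since the genes were chosen on one of them.

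The genes under the filter were close to or at 0. Krt34 had 37, 0 and 0 counts in hairpin 1 against 14, 1 and 5 counts in control 1. Dapl1 had 8, 1 and 0 counts in hairpin 1 against 2, 0 and 0 in control 1. Pax3 had 0, 1 and 0 counts in hairpin 1 against 0 in all 3 control 1 libraries, where 3 counts would amount to 0.174 to 0.177 CPM. In set 2 the same gene had 90 to 276 counts in hairpin 2 and 102 to 182 counts in control 2. The sets were made and filtered separately, so they were not tested against each other.

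**Figure D2:**
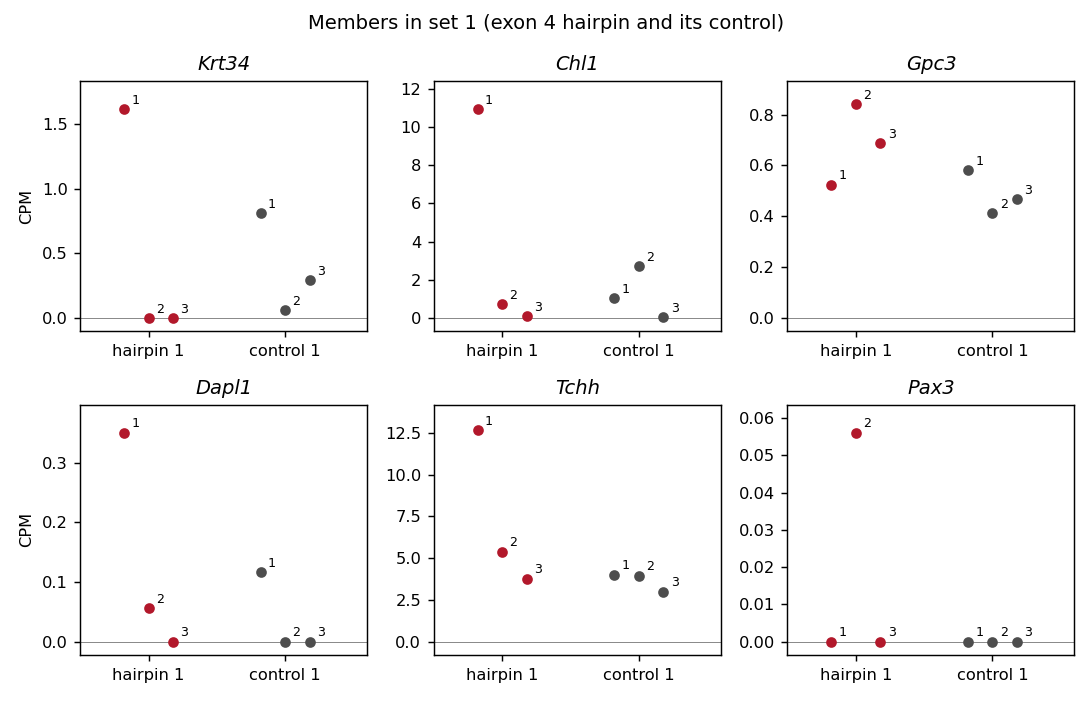
CPM of each gene (vertical axis, scale differs by panel) in the hairpin 1 and control 1 libraries, numbered by replicate (n = 3 each). Hairpin 1 replicate 1 is the highest library in the Krt34, Chl1, Dapl1 and Tchh panels, and Pax3 has a single count among the 6 libraries, in hairpin 1 replicate 2.

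Hairpin 1 replicate 1 held the highest value of set 1 for 4 of the 6 genes, at 1.99 times the next library for Krt34, 4.03 times for Chl1, 3.01 times for Dapl1 and 2.35 times for Tchh. It was not the highest for Gpc3, at 0.525 CPM, and it had 0 counts of Pax3. Most of the related lists were also at their highest in that library. The share of all genes at their highest there is not given. Hair shaft keratins other than Krt34 summed to 30.6 CPM there against 3.55 to 10.5 CPM in the other 5 libraries, the inner root sheath and cornification genes to 239 against 33.9 to 53.8 CPM, and the L1 and contactin family to 1732 against 416 to 916 CPM. Hair follicle regulators were not at their highest there, with 488 CPM against 530 CPM in control 1 replicate 3. Nor were neural crest and melanocyte genes, with 77.4 CPM against 85.7 CPM in hairpin 1 replicate 2. Hedgehog genes were at their lowest, with 161 CPM against 272 CPM or more. Endothelial markers, a cell type the organoids are not meant to hold, summed to 49.7 CPM there against 0.760 to 2.73 CPM. Of these 4 markers only 1 passed the filter on low counts in set 1, and 1 had 0 counts in that library. Whether that sum reflects endothelial cells was not tested. The part of all these lists in the result was not tested either.

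Genes related to the 6 by family or pathway were called in both directions in set 2, in a balance that depended on the test. Of 169 related genes in 11 lists, the 6 themselves left out, 112 were listed and 73 tested in set 2; 8 were higher and 8 lower, and 21.9% were thus called against 6.05% of all tested genes. With replicate numbers blocked 24 were higher and 11 lower, or 32.9% and 15.1%, against 10.2% higher and 10.1% lower among all tested genes. DESeq2 called 14 higher and 11 lower. Their median log2 fold change was 0.09 against 0.0050 for all tested genes. The lists were chosen with earlier results of these data known, and the difference in share was not tested. Among 67 tested in set 1, 0 were called by edgeR or by DESeq2.

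Few hair genes were tested, and their lists differed. Of 15 hair shaft keratins 7 were listed and 4 tested in set 2, with 1 higher (2 with the block), 0 lower and a median of 0.76. All 4 had log2 fold changes above 0. The list summed to 14.1 to 15.7 CPM in hairpin 2 against 10.8 to 12.9 CPM in control 2. The one called by edgeR was Krt33b, next to Krt34, with 0.624, 0.513, 0.541 and 0.664 CPM in hairpin 2 against 0.136, 0.200, 0.191 and 0.120 CPM in control 2, on 3 to 14 counts per library (log2 fold change 1.81, SE 0.301, edgeR adjusted p = 0.0063). Krt33b is one of the genes whose sequence Krt34 shares, so reads of the pair may be exchanged. Krt39 (0.31, adjusted p = 0.61) and Krt36 (0.20, adjusted p = 0.83) had the highest CPM of this list and did not pass. The inner root sheath and cornification list had 5 of 22 tested, with 0 called (1 higher and 1 lower with the block) and a median of 0.03. Its most abundant members in set 2 were Padi4, an arginine deiminase (-0.18, adjusted p = 0.31), and the transglutaminase gene Tgm3, with 9.28 ± 5.06 CPM in hairpin 2 and 18.1 ± 3.44 CPM in control 2 (SD, n = 4 each; -0.99, adjusted p = 0.083, and 4.6e-04 with the replicate block).

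Hair follicle regulators moved both ways, with 3 higher, 2 lower and a median of 0.13 among 14 tested, and 6 higher and 2 lower with the block. Foxq1, a forkhead factor needed for hair structure in mice, had 108 to 121 CPM in hairpin 2 against 68.1 to 88.1 CPM in control 2 (0.57, adjusted p = 0.0037). The homeobox genes Dlx3 (0.38, adjusted p = 0.047) and Msx1 (0.24, adjusted p = 0.040) rose by less. The vitamin D receptor gene Vdr (-1.43, adjusted p = 0.0046) and the ligand gene Shh (-1.24) fell.

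On the neural side, of 8 tested genes in the L1 and contactin family list 0 rose and 2 fell, with a median of 0.02. DESeq2 and the block each called 1 higher and 2 lower. The list also included Nrp1, Sema3a, Ank3 and Ezr, which are not L1 or contactin genes. L1cam, the founding member of the family to which Chl1 belongs, had 7.98, 8.56, 9.62 and 5.14 CPM in hairpin 2 against 17.4, 16.2, 17.1 and 16.3 CPM in control 2 (-1.10, SE 0.153, adjusted p = 0.0025). The contactin partner gene Cntnap1 also fell (-0.39, adjusted p = 0.029). Neuronal markers summed to 4.01 to 5.19 CPM in hairpin 2 against 3.74 to 4.95 CPM in control 2, with 3 tested, 0 called and a median of -0.15. Of the 5 listed among the defining neuron markers, Stmn2 had 0 counts in every set 2 library, and Tubb3 had 0.174 CPM in hairpin 2 and 0.195 CPM in control 2.

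Among relatives of Gpc3, of 13 tested glypicans, syndecans and heparan sulphate enzymes 0 rose and 1 fell, the syndecan gene Sdc2 (-0.77, adjusted p = 0.024), with a median of 0.02, and the block called 2 higher and 1 lower. In the hedgehog pathway, whose ligands Gpc3 binds, Shh had 4.41, 4.06, 4.87 and 2.32 CPM in hairpin 2 against 10.99, 8.66, 9.08 and 8.46 CPM in control 2 (-1.24, SE 0.193, adjusted p = 0.0044). It was the 1 lower gene of 9 tested, with 0 higher and a median of 0.05 by edgeR, while DESeq2 and the block each called 4 higher and 1 lower. Of 8 tested oncofetal growth genes, the RNA-binding protein gene Igf2bp1 rose (1.09, adjusted p = 0.0052), and its relatives Igf2bp3 (-3.37, adjusted p = 3.9e-06) and Igf2bp2 (-0.27, adjusted p = 0.026) fell. Their median was -0.14, with 1 higher and 4 lower by DESeq2 and 2 higher and 4 lower with the block.

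Of the PAX family, 3 others were listed and tested in set 2 and all 3 were called. Pax9, with 39.6 to 47.5 CPM in hairpin 2 against 27.3 to 35.1 CPM in control 2, rose by 0.45 on the log2 scale (adjusted p = 0.019). Pax2, with 36.8 to 42.8 CPM in hairpin 2 against 31.0 to 33.1 CPM in control 2, rose by 0.35 (adjusted p = 0.015). Pax8 was lower on few counts, 1 to 10 in hairpin 2 against 18 to 32 in control 2 (-1.70, adjusted p = 0.017). Neural crest and melanocyte genes had 3 tested and 0 called (1 higher with the block), with a median of 0.36. Of the myogenic genes placed downstream of Pax3, 4 were tested and all 4 had log2 fold changes above 0, with a median of 0.33; 1 was higher by edgeR, 2 by DESeq2 and 3 with the block. This list summed to 164 to 200 CPM in hairpin 2 against 147 to 159 CPM in control 2, so the groups did not overlap. That was not particular to it. Sums of hair shaft keratins, hair follicle regulators and the other PAX genes were also higher in hairpin 2 without overlap. Those of oncofetal growth genes were lower without overlap, with 684 to 760 CPM in hairpin 2 against 777 to 828 CPM in control 2. Melanocyte markers summed to 2.27 to 5.06 CPM in hairpin 2 against 3.31 to 4.61 CPM in control 2.

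**Figure D3:**
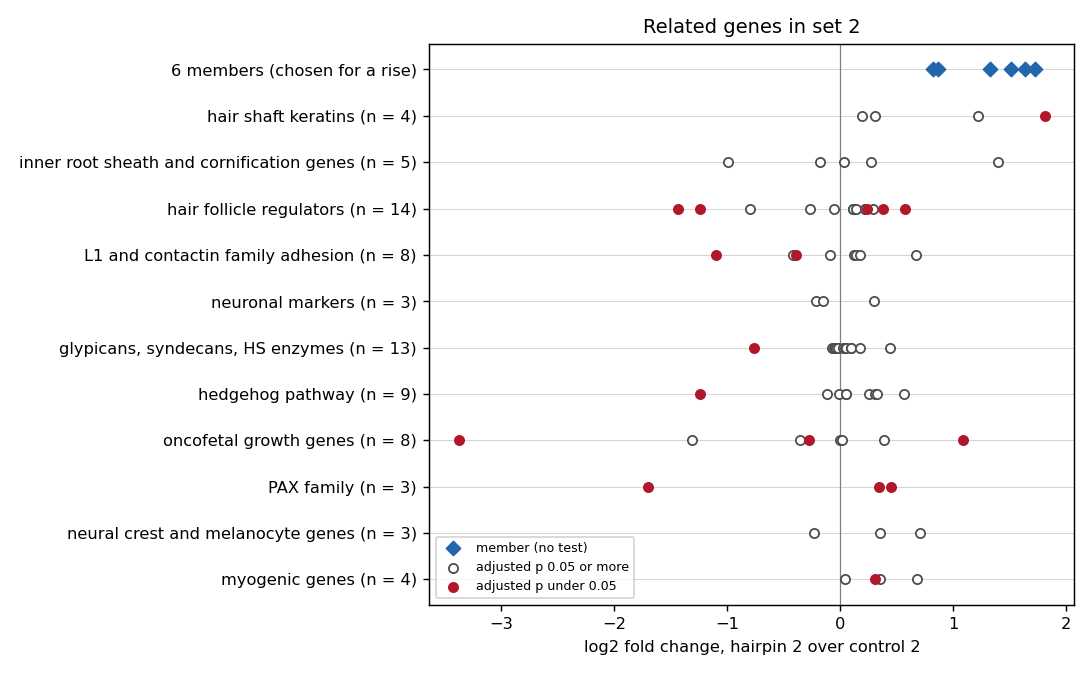
Log2 fold change, hairpin 2 over control 2, of the 6 genes (diamonds, chosen for a rise and not tested) and of tested genes in 11 related lists (circles, filled where the edgeR adjusted p was under 0.05). The called genes lie on both sides of 0, from Igf2bp3 at -3.37 to Krt33b at 1.81.

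Markers of other cell types ranged widely in level in set 2. Stratified keratinocyte markers summed to 742 to 1329 CPM in hairpin 2 against 559 to 874 CPM in control 2, nearly all of it from Lor. Of 3 tested, 0 were higher and 1 was lower by edgeR, and 1 was higher and 1 lower with the block. Fibroblast markers summed to 13.9 to 15.8 CPM in hairpin 2 against 11.3 to 12.7 CPM in control 2, with Pdgfra higher and Pdgfrb lower and Col3a1 near 0. Endothelial markers reached 0.581 CPM in hairpin 2 and 0.318 CPM in control 2 at most. Of the stratified keratinocyte markers, Krt14 had 0.0210 CPM in hairpin 2 and 0.0627 CPM in control 2 and Krt1 had 0 counts in both, while the cornified envelope gene Lor had 909 CPM in hairpin 2 and 689 CPM in control 2 (log2 fold change 0.40, adjusted p = 0.29, and 0.0012 with the block). Immune markers summed to 11.8 to 15.7 CPM in hairpin 2 against 14.2 to 20.5 CPM in control 2. Enteroendocrine markers summed to at most 0.830 CPM in hairpin 2 and 0.636 CPM in control 2. Glial markers summed to 196 to 208 CPM in hairpin 2 against 203 to 209 CPM in control 2. Only 3 of the 6 glial markers were listed and 2 tested, with 0 called. Whether the glial sum reflects glial cells was not tested.

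The nearest protein-coding genes, 2 on each side of each member, were called in both directions. Of 24 such neighbours 16 were listed and 14 tested in set 2, with 1 higher (Krt33b, 7.48 kb from Krt34) and 1 lower (Pkp4, a desmosomal plaque gene 129 kb from Dapl1, at -0.27, adjusted p = 0.025), and a median of 0.11. These 2 are 14.3% of the tested neighbours, against 6.05% of all tested genes, and with the block 4 were higher and 2 lower (42.9%, against 20.4% of all tested genes). Gpc4, the glypican gene 107 kb from Gpc3, had 77.9 CPM in hairpin 2 and 80.1 CPM in control 2 (-0.04, adjusted p = 0.87). Tanc1 (0.07) beside Dapl1, and Sgpp2 (-0.04) and Farsb (0.08) beside Pax3, did not pass either.

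Near the hair genes 2 further neighbours had large values that did not pass. Rptn, the repetin gene 42.9 kb from Tchh and a relative of it, had 14.4, 9.47, 11.2 and 3.57 CPM in hairpin 2 against 5.22, 2.35, 5.72 and 1.48 CPM in control 2. The groups overlapped through hairpin 2 replicate 4, and the log2 fold change was 1.40 (SE 0.460, adjusted p = 0.11, and 6.7e-05 with the replicate block). Krt32, 39.3 kb from Krt34, had 1.83, 1.77, 1.30 and 0.0830 CPM in hairpin 2 against 0.590, 0.701, 0.801 and 0.200 CPM in control 2, with hairpin 2 replicate 4 lowest of all 8 libraries (1.22, SE 0.565, adjusted p = 0.27, and 0.023 with the block). On the other side of Tchh, S100a11 was at -0.31 (adjusted p = 0.25, and 0.018 with the block). In set 1, 11 of the 24 neighbours were tested and 0 called, between -0.10 and 0.53.

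**Figure D4:**
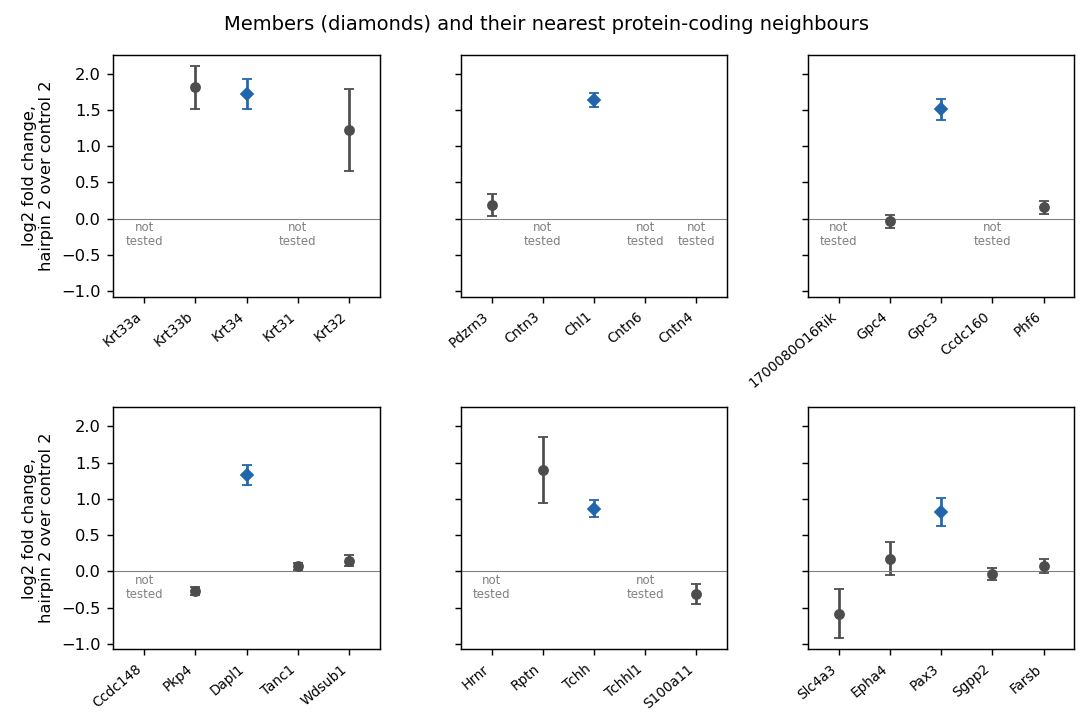
Log2 fold change, hairpin 2 over control 2, with its standard error, of each member (diamond) and of the 2 nearest protein-coding genes on each side in order of position (circles). Krt33b, Krt32 and Rptn lie above 1, and the tested neighbours of Chl1, Gpc3, Dapl1 and Pax3 lie between -0.58 and 0.19.

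The genes whose levels followed the 6 most closely were found by Pearson correlation of log2(CPM + 0.5) over the 8 libraries of set 2, among 11415 genes averaging 1 CPM or more. These values rest largely on the gap between the groups and are a description. Krt34 was most like Phf2 (0.99), Rnf20 (0.99) and Dhx29 (0.98), and Tchh most like Zfp316 (0.98), Slc9a3 (0.98) and Adcy8 (0.98). Chl1 was most like Dnmbp (0.99), Prr18 (0.99) and Kdm1b (0.99). Gpc3 was most like Hip1 (0.99), Trappc13 (0.99) and Chl1 itself (0.98). Dapl1 was most like Tfpi2 (0.99), Selenop (0.99) and Rnf157 (0.98), and Pax3 most like Ccdc127 (0.99), Hpse (0.99) and Rhob (0.99). Chl1 apart, these partners had log2 fold changes of 0.20 (Dnmbp) to 1.05 (Tfpi2), and of them Ccdc127 did not pass the test (0.24, adjusted p = 0.073, and 0.0062 with the block).

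With the group means taken out, the 6 did not vary as 1 block. Tchh and Pax3 deviated together (0.90 over the 8 libraries), as did Chl1 and Gpc3 (0.77), while Chl1 ran against Tchh (-0.86) and Pax3 (-0.80). Dapl1 was within 0.47 of 0 with each of the others. On these deviations Krt34 was most like Rnpc3 (0.96), Prkch (0.95) and Ssb (0.94), and Tchh most like Rnf13 (0.98), Gmeb2 (0.93) and Megf6 (0.93). Chl1 followed Gmip (0.96), Muc3a (0.96) and Adh1 (0.96), and Gpc3 followed Bub3 (0.98), Eefsec (0.97) and Mtor (0.97). Dapl1 followed Cdx1 (0.99), Dmap1 (0.97) and Tead2 (0.97), and Pax3 followed Smoc2 (0.97), Bmp6 (0.97) and Srsf4 (0.97). These partners were picked as the highest among 11415 genes over only 8 libraries. Such a choice favors high values, so these correlations are a description without a test. Cdx1, a homeobox gene of intestinal identity, was itself lower in hairpin 2, with 10.9 CPM against 41.2 CPM in control 2 (-1.92, adjusted p = 2.6e-05). Whether Dapl1 and Cdx1 are linked was not tested.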

How the data were processed

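The deposited files hold raw gene counts as integers, separately for every library, without normalization by the authors. Per the submitters' processing notes the tools included featureCounts, STAR, bcl2fastq 2.20, DESeq2 and FastQC; whether counting used strand is not given in the sources used here. Symbols, coordinates and exon lengths came from GENCODE M21, which matched 55240 of 55421 genes of set 1 and 17471 of 17490 of set 2. 

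CPM were counts over TMM-scaled totals. The sets were fitted separately in edgeR 4.0.16 (R 4.3.3; quasi-likelihood test) with TMM, filterByExpr and Benjamini-Hochberg adjustment over all tested genes, at a threshold of 0.05. Adjusted p-values are edgeR's unless another tool is named. The code was tested on simulated counts. The 6 genes, the lists and the alternatives were chosen with earlier results of these data known. Named genes were the 6, Kmt5c, up to 4 called genes per list by smallest p or else the 2 with the highest CPM, the 3 most alike genes for each measure and the nearest neighbours; others were chosen after their values were seen. Some genes meeting this rule are left out for length. One gene among the related genes is not reported here.

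Whether equal replicate numbers pair libraries was judged from the data, not the labels, by every same-number correlation of deviations exceeding 0.1. In set 2 these were 0.214 to 0.660, against -0.461 to 0.265 for different numbers; the 2 kinds overlapped among replicates 1 to 3, and the highest was replicate 4 at 0.660, so the pairing rests mainly on replicate 4. In set 1 they were 0.254, -0.0038 and 0.287, against at most 0.175, so 2 of 3 pairs met the bar and the set was not taken as paired. Alternatives were DESeq2 size factors, no filter, the DESeq2 Wald test (1.42.0), limma voom with quality weights (3.58.1), the replicate block, a model of all 14 libraries and leaving out libraries.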

Additional observations from a re-analysis of the deposited data

How the results depend on the processing

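For hairpin 2, 15 alternatives were run per gene. Log2 fold changes were 1.59 to 1.92 for Krt34, 1.603 to 1.673 for Chl1, 1.45 to 1.59 for Gpc3, 1.26 to 1.48 for Dapl1, 0.78 to 0.96 for Tchh and 0.68 to 0.92 for Pax3. Their direction was set by the choice of genes whose groups did not overlap, so it is no support for the rise. In the model of all 14 libraries every SE was larger, from 0.213 for Gpc3 to 0.890 for Chl1. In the fit of set 2 alone these were 0.146 and 0.097. In set 1 the value of Chl1 turned to -0.30 with voom quality weights and, on leaving out a library, ran from -1.61 (without hairpin 1 replicate 1) to 2.82 (without control 1 replicate 2); those of Tchh (0.32 to 1.35) and Gpc3 (0.31 to 0.65) stayed above 0, and none of the 3 passed in any of 12 alternatives. The cause of these changes was not tested. Genes called for hairpin 1, 0 in the test reported, numbered 22 with DESeq2, 8 with voom quality weights and 187 in the model of all 14 libraries, and 0 to 1 on leaving out a library, the 1 without hairpin 1 replicate 1. For hairpin 2, 854 were called, and 1346 with DESeq2, 2466 with voom, 120 in the model of all 14 libraries, 2396 without both replicate 4 libraries and 2880 with the replicate block. Leaving out 1 library gave 453 (control 2 replicate 2) to 1409 (hairpin 2 replicate 4), with 516 without control 2 replicate 1 and 526, 473 and 564 without hairpin 2 replicates 1, 2 and 3. Of the related genes 16 were called for hairpin 2, against 25 with DESeq2 and 35 with the replicate block, of which 24 were higher. The block left hairpin 1 at 0 calls. Low counts limit Krt34, Dapl1 and Pax3 in set 1, which were tested only where a fit kept them, with no call.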
